A study of Mus musculus with 278 samples.

Results

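The epidermal growth factor (EGF) receptor family was followed in single cultured mouse cells labelled as keratinocytes. It was read through 10 genes taken by name from the 14145 genes of the expression table. These were the receptors Egfr, Erbb2 and Erbb3, the ligands Tgfa, Hbegf, Areg, Ereg, Epgn and Btc, and the feedback inhibitor Errfi1. All 10 were in the table and were above 1 transcript per 1000000 (TPM) in more than 5 cells, as were 12355 genes in all. The study asked how keratinocytes respond when β-catenin is switched on in a minority of their neighbours. Wild-type keratinocytes and keratinocytes carrying the K14ΔNβ-cateninER transgene, all from adult dorsal skin, were mixed at 9 parts to 1. The transgene is a stabilised β-catenin that 4-hydroxytamoxifen (4OHT) activates, and the keratin 14 promoter drives it. Wells received 200 nM 4OHT (treated) or DMSO (untreated) for 24 h. Every group grew in the same serum-containing medium with hydrocortisone, insulin, cholera enterotoxin and 10 ng/ml EGF, so the receptor's own ligand was present throughout. The labels do not mark which cells carried the transgene, and these were not told apart here. Cell names fall into 2 series, AG and GHA501A, which gave 4 library sets of 66 AG untreated, 64 AG treated, 71 GHA501A untreated and 69 GHA501A treated cells.

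Egfr, Erbb2 and Erbb3 are receptor tyrosine kinases that signal as pairs. Tgfa, amphiregulin (Areg), epigen (Epgn), heparin-binding EGF-like growth factor (Hbegf), epiregulin (Ereg) and betacellulin (Btc) are made as membrane-bound precursors and released by shedding proteases. Erbb2 binds no known ligand and acts as the partner of other members, whereas Erbb3 binds neuregulins and has little kinase activity of its own. In epidermis the pathway sustains keratinocyte proliferation and migration in an autocrine manner, and keratinocytes respond to wounding with more ligand.

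Cells are not replicates of a condition, so conditions were compared over the 4 sets, with values as log2(mean TPM of the set + 1). The labels name no animal or culture, so the p-values below measure the spread between these sets only, which may be technical. Read depth is unknown because TPM values sum to 1000000 in every cell. The median number of genes above 1 TPM was 6191, 6381, 6392 and 6008 per cell in AG untreated, AG treated, GHA501A untreated and GHA501A treated sets.

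Although every cell is labelled a keratinocyte, the 2 series had different cell contents. Each cell was scored by its mean log2(TPM + 1) over 17 keratinocyte markers minus that over 14 fibroblast markers (of 18 in each list, those in the table), neither of which holds any of the 10 genes. A positive score was called keratinocyte-marker-high and a negative one fibroblast-marker-high, which are ranges of a score rather than cell types. In AG, 66 of 66 untreated cells and 62 of 64 treated cells were keratinocyte-marker-high. In GHA501A, 8 of 71 untreated cells (11.3%, 95% Wilson interval 5.82 to 20.7) and 12 of 69 treated cells (17.4%, 10.2 to 27.98) were. Between 0 and 1 cell of each set lay within 1 log2 unit of the boundary. Median keratin 14 (Krt14) was 4864 and 5497 TPM in the keratinocyte-marker-high cells of AG untreated and treated sets and 1676 and 2622 TPM in those of GHA501A. In the fibroblast-marker-high cells of GHA501A it was 1.89 and 6.59 TPM, whereas the median of the collagen gene Col1a1 was 1276 and 1056 TPM. Col1a1 had a median of 8.17 and 38.3 TPM in the keratinocyte-marker-high cells of GHA501A and was listed at 0 for the median AG cell. The marker data of most GHA501A cells therefore go against their label.

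**Figure D1:**
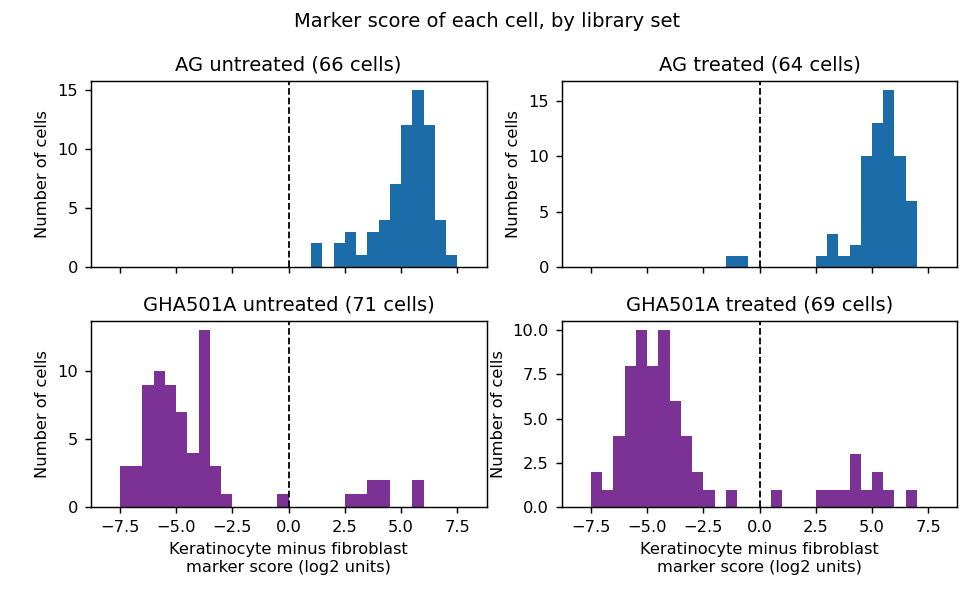
Number of cells (vertical axis) at each keratinocyte minus fibroblast marker score (horizontal axis, log2 units, dashed line at 0) in the 4 library sets. AG cells lie to the right of 0 except for 2 treated cells, whereas 63 untreated and 57 treated GHA501A cells lie to the left.

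Summed over the list, keratinocyte markers stood at a mean of 28886 and 31111 TPM in AG untreated and treated sets and at 2618 and 4753 TPM in GHA501A, with Krt17 the most abundant. Itgb4, an integrin of keratinocyte adhesion, is nevertheless listed at 0 in every AG cell, which may be a failed estimate. The fibroblast list summed to 3061 and 2844 TPM in AG and to 8089 and 8712 TPM in GHA501A, with Fstl1 the most abundant. Of 7 immune markers 2 were in the table, and Lyz2 gave nearly all of their sum, at 147 and 98.3 TPM in AG and 388 and 1079 TPM in GHA501A. Melanocyte markers (4 of 7 in the table) summed to between 24.98 and 76.3 TPM, Schwann cell markers (4 of 5) to between 1.10 and 39.6 TPM and endothelial markers (2 of 5) to between 0 and 0.448 TPM. Because the series differ in these contents, each gene is described below by set and also by class.

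Egfr, the receptor of all 6 ligands, was detected (above 1 TPM) in 62.1% and 68.8% of AG untreated and treated cells and in 30.99% and 37.7% of GHA501A untreated and treated cells. Its median was 2.75 and 2.93 TPM in AG and 0 and 0.537 TPM in GHA501A, and its highest cells held 81.9, 64.5, 54.2 and 453.5 TPM in the 4 sets. Its mean level was 9.66 and 7.78 TPM in AG and 4.92 and 13.4 TPM in GHA501A. More AG cells thus held Egfr transcript, but the set means of the series overlapped. Without the highest cell of each set the means were 8.55 and 6.88 TPM in AG and 4.21 and 6.94 TPM in GHA501A, which also overlapped.

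Erbb2, the ligandless partner, was the most widely detected receptor, in 80.3% and 75% of AG untreated and treated cells and in 38.03% and 40.6% of GHA501A cells. Its median was 15.9 and 14.5 TPM in AG and 0 and 0.511 TPM in GHA501A. Mean levels were 47.7 and 26.6 TPM in AG and 13.1 and 20.98 TPM in GHA501A, with both AG sets above both GHA501A sets. Egfr and Erbb2 were detected together in 50% of the cells of each AG set and in 12.7% and 17.4% of the cells of GHA501A untreated and treated sets. Across cells the Pearson r of their log2(TPM + 1) was 0.051 and -0.21 in AG and 0.033 and 0.18 in GHA501A. Whether joint detection exceeded that of independent genes was not tested. An exon of Erbb2 overlaps the span of Mien1 on the other strand, and whether exons of both genes meet was not examined. Reads were not assigned by strand with this kit, so a part of either gene's signal may belong to the other.

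Erbb3, the neuregulin receptor, was found in few cells, at 22.7% and 21.9% of AG and 7.04% and 15.9% of GHA501A untreated and treated cells. One AG untreated cell at 799 TPM held 75.9% of the Erbb3 signal of its set, and the mean without it was 3.91 TPM against 15.95 TPM with it. Within GHA501A, 12 of 20 keratinocyte-marker-high cells (60%, 95% Wilson interval 38.7 to 78.1) and 4 of 120 fibroblast-marker-high cells (3.33%, 1.30 to 8.26) were positive. In the fibroblast-marker-high cells no value exceeded 2.67 TPM. Erbb3 is among the genes that the study listed as markers of one of its cell states from these same cells, so its unevenness here is not independent evidence.

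**Figure D2:**
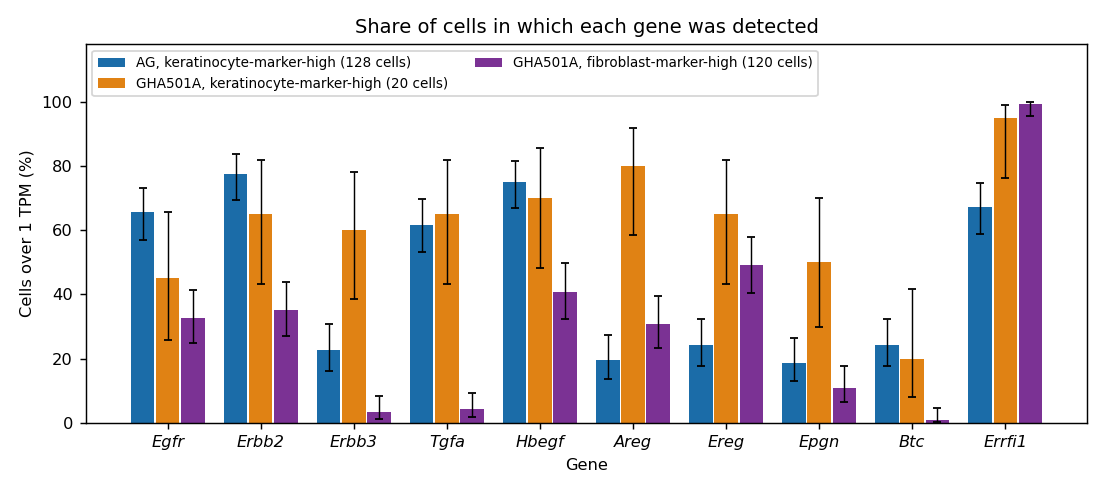
Percentage of cells above 1 TPM (vertical axis) for each gene (horizontal axis) in AG keratinocyte-marker-high cells, 20 GHA501A keratinocyte-marker-high cells and 120 GHA501A fibroblast-marker-high cells. Error bars are 95% Wilson intervals, which cover counting error only. Erbb3, Tgfa and Btc are detected in 3.33%, 4.17% and 0.833% of fibroblast-marker-high cells, and Errfi1 in 99.2%.

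Of the ligands, Tgfa separated the series most. It was detected in 57.6% and 64.1% of AG untreated and treated cells and in 12.7% and 13.04% of GHA501A cells. Its mean was 22.6 and 25.9 TPM in AG and 1.08 and 2.89 TPM in GHA501A, and its highest cells reached 331, 228, 22.6 and 59.7 TPM. Both AG sets lay above both GHA501A sets. By class, Tgfa was found in 65% of the 20 keratinocyte-marker-high cells of GHA501A, close to the 61.7% of AG keratinocyte-marker-high cells, and in 4.17% of the 120 fibroblast-marker-high cells.

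Hbegf, whose precursor also serves as a juxtacrine ligand, was the most abundant of the 10 genes in AG. It was detected in 77.3% and 73.4% of AG and 45.1% and 44.9% of GHA501A untreated and treated cells. Mean levels were 84.2 and 59.3 TPM in AG against 21.2 and 34.3 TPM in GHA501A, without overlap between the series. The keratinocyte-marker-high cells of GHA501A had means of 83.2 and 86.7 TPM and the fibroblast-marker-high cells 13.3 and 23.3 TPM, with the former above the latter in both sets. In the treated sets the means were 46.9 and 14.8 TPM without the highest cell, which held 50.4% of the signal of the 12 keratinocyte-marker-high cells.

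Areg, a heparin-binding ligand of keratinocytes, was detected in 24.2% and 14.1% of AG and 33.8% and 42.03% of GHA501A untreated and treated cells. Its mean was 25.9 and 5.55 TPM in AG and 36.5 and 57.6 TPM in GHA501A, where 1 treated cell held 2085 TPM. Ereg, which can act through several receptors of the family, was detected in 24.2% and 25% of AG and 54.9% and 47.8% of GHA501A cells, with means of 10.2 and 7.32 TPM against 31.04 and 24.1 TPM. For both ligands the 2 GHA501A sets lay above the 2 AG sets. By class, Areg was found in 80% of keratinocyte-marker-high and 30.8% of fibroblast-marker-high cells of GHA501A. Ereg was found in 65% (95% Wilson interval 43.3 to 81.9) and 49.2% (40.4 to 57.997). These intervals pool the cells of both sets and cover counting error only, so they do not test the class difference.

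Epgn was detected in 19.7% and 17.2% of AG and 5.63% and 27.5% of GHA501A untreated and treated cells. Above 10 TPM the shares were 15.2% and 15.6% in AG and 4.23% and 7.25% in GHA501A, so many GHA501A treated positives were low values. Its GHA501A treated mean of 27.6 TPM rested on 1 cell at 1411 TPM and was 7.25 TPM without it. Btc was the lowest of the 10 genes in both series, with means of 3.68 and 1.998 TPM in AG and 0.926 and 0.508 TPM in GHA501A. Without the highest cell of each set the Btc means were 2.24 and 0.709 TPM in AG and 0.0734 and 0.0856 TPM in GHA501A. Btc was found in 1 of 120 fibroblast-marker-high cells. Per cell, a median of 2 of the 6 ligands was detected in AG untreated, AG treated and GHA501A treated sets and of 1 in GHA501A untreated cells. The keratinocyte-marker-high cells of GHA501A had medians of 3.5 untreated and 4 treated, and none of these 20 cells lacked a ligand. Egfr and at least 1 ligand were found in the same cell in 60.6% and 65.6% of AG and 22.5% and 34.8% of GHA501A cells.

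Errfi1 encodes a cytoplasmic inhibitor that binds the activated EGF receptor kinase and is itself induced by receptor signalling. It was detected in 68.2% and 67.2% of AG untreated and treated cells but in 98.6% of the cells of both GHA501A sets. Its median was 7.85 and 12.4 TPM in AG and 133.5 and 206 TPM in GHA501A, and its mean was 32.6 and 36.1 TPM against 209 and 282 TPM. Errfi1 thus had the highest level of the 10 genes over all GHA501A cells, above Areg by more than the spread between sets, whereas Hbegf led in AG. The order of mean levels in AG was Hbegf, Erbb2, Errfi1, Tgfa, Areg, Epgn, Egfr, Ereg, Erbb3 and Btc. Only Hbegf over Erbb2 and Errfi1 over Tgfa were further apart than the larger SD over the 2 sets, and no other neighbours in AG were. In GHA501A the order was Errfi1, Areg, Ereg, Hbegf, Erbb2, Epgn, Egfr, Erbb3, Tgfa and Btc. There Ereg and Hbegf did not differ beyond that spread, nor did the successive genes from Erbb2 to Tgfa. That order pools classes of which 120 of 140 cells are fibroblast-marker-high. In the keratinocyte-marker-high cells of GHA501A the order was Areg (7.40 ± 1.14 on the log2 scale, SD over 2 sets), Hbegf (6.42 ± 0.041), Epgn (6.21 ± 1.47), Errfi1 (5.66 ± 1.52), Erbb3, Ereg, Erbb2, Tgfa, Egfr and Btc, and these first 4 genes did not differ from their neighbours beyond that spread. In the fibroblast-marker-high cells it was Errfi1 (8.10 ± 0.32), Ereg (4.76 ± 0.30), Hbegf, Areg, Erbb2, Egfr, Epgn, Tgfa, Erbb3 and Btc, the last 4 at 0.69 or below. The span of an antisense gene, 1700045H11Rik, overlaps an exon of Errfi1, and reads from shared bases cannot be assigned to either gene without strand. The same holds for Ereg with Gm19610 and for Tgfa with Gm43917. The size of these overlaps, and whether exons of both genes meet, was not examined.

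**Figure D3:**
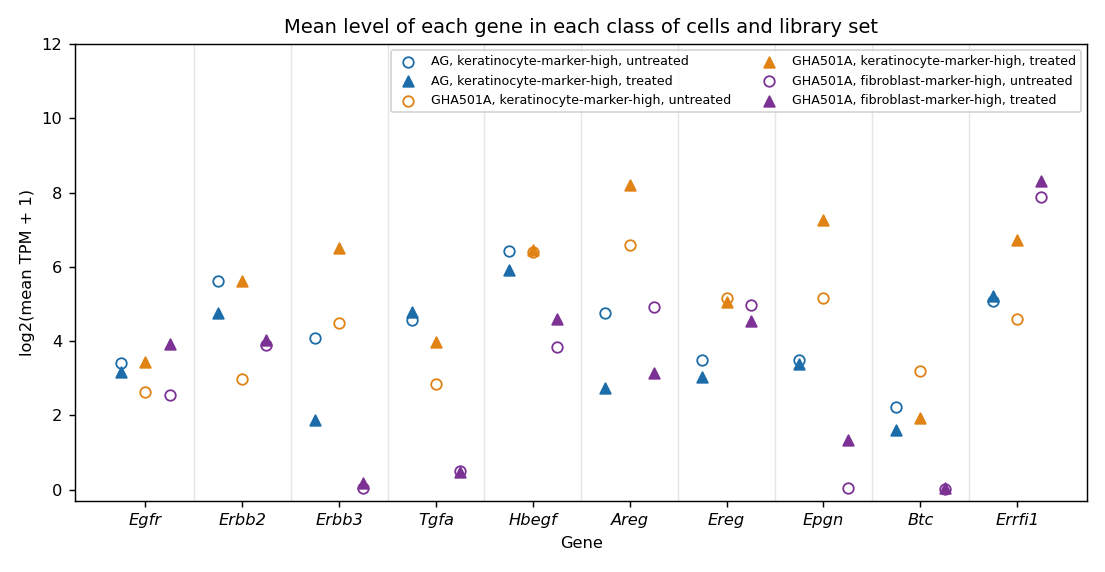
log2(mean TPM + 1) (vertical axis) of each gene (horizontal axis) in each class of cells. Open circles are untreated and filled triangles treated sets, and colours mark AG keratinocyte-marker-high, GHA501A keratinocyte-marker-high and GHA501A fibroblast-marker-high cells. Erbb3 lies at 0.05 and 0.17 in the fibroblast-marker-high sets and Errfi1 at 7.87 and 8.32.

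Epgn, Ereg, Areg and Btc lie side by side on chromosome 5 (GRCm38 assembly, GENCODE M21 annotation). They are the 4 protein-coding genes of a 375.5 kb span from 91027464 to 91402994. Epgn, Ereg and Areg are on the plus strand and Btc on the minus strand. Tgfa lies on chromosome 6 (86195223 to 86275719, plus strand), Errfi1 on chromosome 4 (150853919 to 150868892, plus strand), Egfr and Erbb2 on chromosome 11 (16752203 to 16918158 and 98412470 to 98437716, plus strand) and Erbb3 on chromosome 10 (128567523 to 128589652, minus strand). The clustered ligands differed in where they were detected, as Ereg was found in 49.2% of the fibroblast-marker-high cells of GHA501A and Btc in 0.833%.

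Promoter sequences were available from RefSeq (GRCm38.p6) for 7 of the 10 genes, and 3 are shown because Tgfa and Errfi1 had the largest differences between the series and Areg shares a pair of motifs with Errfi1. Each is the 150 bases before a transcription start, 5′ to 3′ on the gene's plus strand. Capitals mark TGACGTCA (the palindromic cyclic AMP response element) and TATAAA (the TATA box).
Areg, chr5:91139449-91139598: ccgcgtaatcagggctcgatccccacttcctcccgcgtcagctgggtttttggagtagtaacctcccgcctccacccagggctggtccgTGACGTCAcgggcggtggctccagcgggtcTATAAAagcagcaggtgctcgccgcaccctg
Errfi1, second start, chr4:150854920-150855069: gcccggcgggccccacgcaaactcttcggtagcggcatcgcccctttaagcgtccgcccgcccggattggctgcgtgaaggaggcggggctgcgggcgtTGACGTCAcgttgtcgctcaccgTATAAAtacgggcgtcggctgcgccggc
Tgfa, chr6:86195072-86195221: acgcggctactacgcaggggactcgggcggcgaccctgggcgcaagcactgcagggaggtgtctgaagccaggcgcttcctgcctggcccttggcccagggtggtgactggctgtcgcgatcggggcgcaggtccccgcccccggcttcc
Both strands were searched. TGACGTCA began 61 bases before the Areg start and 51 before this Errfi1 start, and TATAAA began 31 and 28 bases before them, without overlap. TGACGTCA occurs in 1.36% and TATAAA in 7.57% of all 32851 windows of this length. The Tgfa window held neither. GGGCGG, a motif of 28.6% of windows, was in all 3 windows shown, in 2 places each in those of Tgfa and Errfi1 and starting 52 bases before the Areg start. A match is a description of the sequence and is not evidence of binding. The first annotated Errfi1 start had none of the 3 motifs, and the expression table does not tell the starts apart.

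To ask whether the family responded to 4OHT treatment of the co-culture, each treated set was compared with the untreated set of its series. None of the 10 genes was called (adjusted p under 0.05 and an absolute log2 difference over 0.5, limma with Benjamini-Hochberg adjustment over 12355 genes), and percent called among all genes was 0. At an unadjusted p under 0.05 there were 459 genes and 0 of the 10. The log2 differences were between -0.70 for Areg and 1.19 for Epgn (SE 0.71 for each). No gene had both treated sets above or below both untreated sets, against 6.92% and 7.68% of all genes tested. In 6 of the 10 genes the series went opposite ways, against 50.3% of all genes: Erbb3 differed by -2.23 in AG and 2.28 in GHA501A, Areg by -2.04 and 0.64, and Epgn by -0.15 and 2.53. Without the highest cell of each set these were -0.72 and 1.95 for Erbb3, -2.38 and 0.042 for Areg and -0.24 and 1.77 for Epgn. Btc then also went opposite ways, at -0.92 in AG and 0.016 in GHA501A. Among the GHA501A cells, Areg differed by 1.62 in keratinocyte-marker-high and -1.77 in fibroblast-marker-high cells, and by 0.78 in the former without the highest cell of each set. Within a series or a class there is 1 set per treatment, so these differences were not tested.

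**Figure D4:**
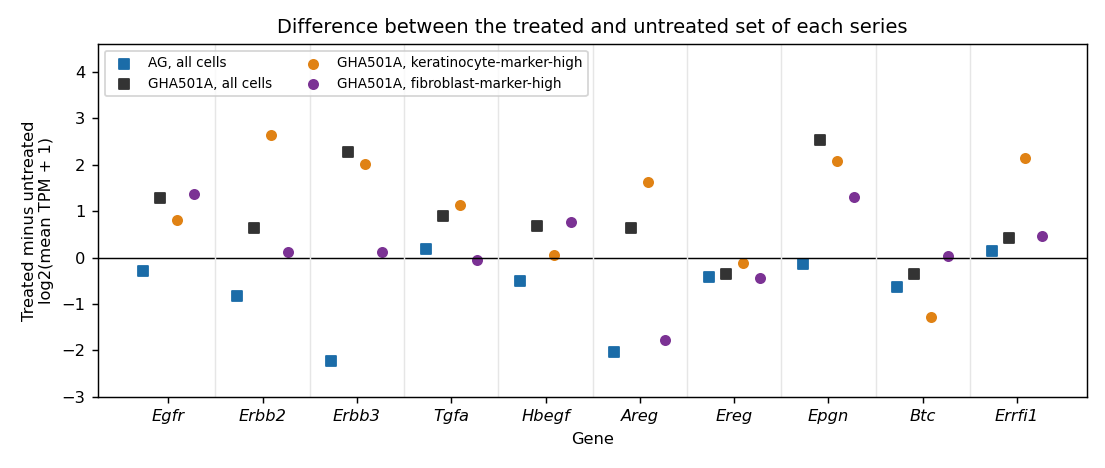
Treated minus untreated log2(mean TPM + 1) (vertical axis) of each gene (horizontal axis) within AG, within GHA501A and within the 2 marker classes of GHA501A. Squares are all cells of a series and circles are classes. Each point is 1 treated set against 1 untreated set and has no error of its own. Erbb3 lies at -2.23 for AG and 2.28 for GHA501A.

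Comparing the series with treatment as a covariate, Tgfa was higher in AG and Errfi1 and Ereg were lower. Tgfa differed by 3.15 on the log2 scale (SE 0.37, adjusted p = 0.00538), or 8.87-fold in mean TPM plus 1, from 4.66 ± 0.13 in AG and 1.51 ± 0.64 in GHA501A (SD, n = 2 sets). Errfi1 differed by -2.79 (SE 0.33, adjusted p = 0.00574), or 6.91-fold lower in AG, and Ereg by -1.55 (SE 0.33, adjusted p = 0.0284). These 3 of 10 genes called compare with 29% of all 12355 genes, of which 10.8% were higher and 18.2% lower in AG, so the share is near the background. Of these calls 37.2% were higher in AG, and 53.2% after quantile normalization. Leaving out 1 set, which also drops treatment from the fit so that a degree of freedom remains, gave 1023 (AG untreated), 1266 (AG treated), 2229 (GHA501A untreated) and 2198 (GHA501A treated) calls, and dropping treatment alone gave 3853. The series differ in cell content, and series, preparation and content cannot be told apart from the labels. Leaving out either AG set gave an adjusted p between 0.0615 and 0.104 for Tgfa and Errfi1, with log2 differences from 3.06 to 3.24 and from -2.86 to -2.72. Ereg lost its call without any 1 of the sets (adjusted p between 0.0763 and 0.113) and with a pseudocount of 0.1 (adjusted p = 0.0547).

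Hbegf (1.36, SE 0.43, adjusted p = 0.0797), Btc (1.14, SE 0.33, adjusted p = 0.0675) and Erbb2 (1.06, SE 0.47, adjusted p = 0.170) had both AG sets above both GHA501A sets and did not pass. Together with Tgfa these were 4 genes, against 32.9% of all genes tested. Areg, Ereg and Errfi1 had both AG sets below, against 36.7% of all genes. The differences of Egfr (0.07), Erbb3 (0.04) and Epgn (-0.15, or 0.18 after quantile normalization) were smaller than their SEs of 0.49, 1.11 and 0.71. The median of the 10 genes was 0.05, and that of all genes -0.01.

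**Figure D5:**
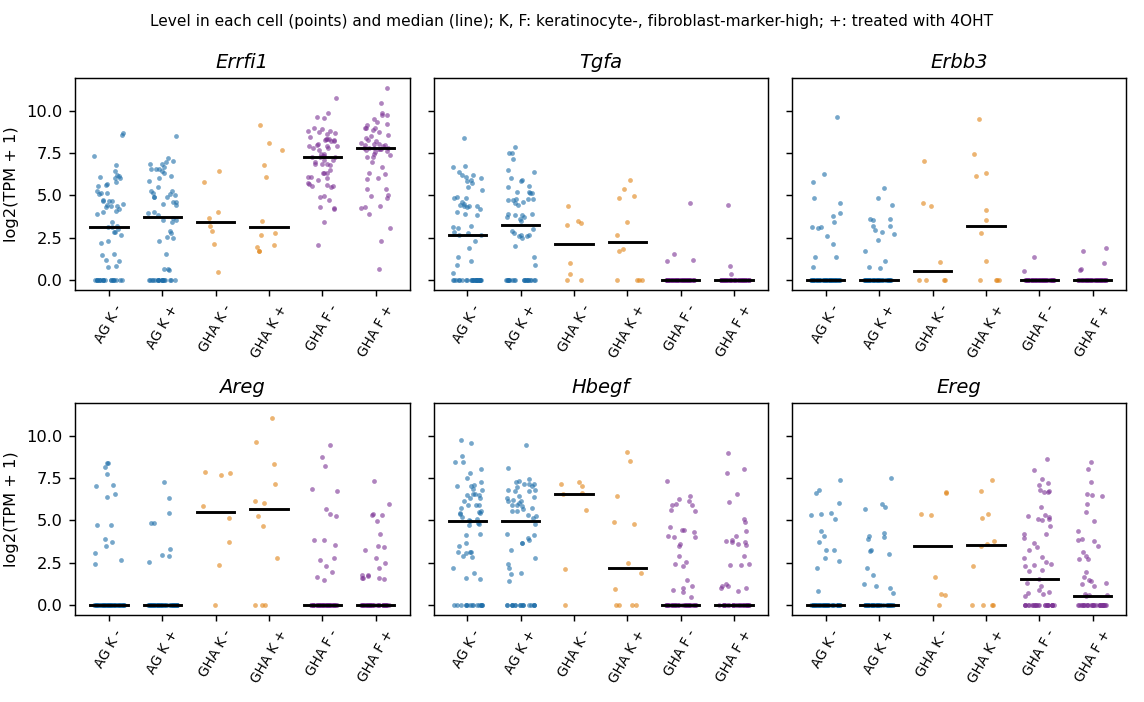
log2(TPM + 1) (vertical axis) of 6 genes in single cells (points) with the median (line), by series, marker class (K, keratinocyte-marker-high, and F, fibroblast-marker-high) and treatment (+, 4OHT). Errfi1 medians are highest in the fibroblast-marker-high cells, at 151.7 TPM untreated and 219 TPM treated, where nearly all Tgfa and Erbb3 values are 0.

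Within GHA501A, where both classes of cells came from the same sets, the mean levels of Erbb3 and of the 6 ligands were higher in the keratinocyte-marker-high cells and that of Errfi1 was lower. Transcripts were found in both classes, as 49.2%, 40.8% and 30.8% of the fibroblast-marker-high cells were positive for Ereg, Hbegf and Areg, and 95% of the 20 keratinocyte-marker-high cells for Errfi1. Both keratinocyte-marker-high sets were above both fibroblast-marker-high sets for 7 of the 10 genes, against 17.7% of 12324 genes tested (those outside the marker lists). The log2 differences were 5.52 for Epgn (SE 0.36), 5.39 for Erbb3 (SE 0.69), 3.37 for Areg (SE 1.18), 2.92 for Tgfa (SE 0.47), 2.53 for Btc (SE 0.51), 2.21 for Hbegf (SE 0.34) and 0.34 for Ereg (SE 0.27). Some of these means rested on single cells. In the untreated and treated keratinocyte-marker-high sets, 1 cell held 92.7% and 87.6% of the Btc signal, 74.7% and 66.7% of that of Erbb3 and 65.1% and 77.7% of that of Epgn. Btc was positive in 4 of the 20 cells. Without the highest cell of each gene the differences were 0.60 for Btc, 3.90 for Erbb3, 4.10 for Epgn and 0.14 for Ereg, and the Ereg sets of the classes overlapped, which left 6 genes. Errfi1 was the 1 gene with both sets below, by -2.44 (SE 0.63), against 28.7% of all genes. Egfr (-0.21, SE 0.31, or 0.01 after quantile normalization) and Erbb2 (0.33, SE 0.89) overlapped between the classes. The median of the 10 genes was 2.37 and that of all genes -0.11. With 2 sets per class and a block for set, limma called none of the 10 genes, and percent called among all genes was 0, while 5 of the 10 and 1573 of all genes had an unadjusted p under 0.05. Adjusted p for these 5 (Epgn, Erbb3, Hbegf, Tgfa and Btc) was between 0.327 and 0.357.

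Between the series, the keratinocyte-marker-high cells were then compared with each other. Of all genes 10.4% were called (3.02% higher and 7.4% lower in AG) and of the 10 genes none, with 3 at an unadjusted p under 0.05, against 3215 (26%) of all genes. Without either AG set, and treatment out of the fit, 0 of all genes were called, and without the GHA501A untreated or treated set 2729 and 2346. The 3 genes were Areg (-3.65, SE 1.01, adjusted p = 0.108), Epgn (-2.77, SE 0.74, adjusted p = 0.101) and Ereg (-1.85, SE 0.54, adjusted p = 0.118), lower in AG. The Epgn difference was -1.45 without its highest cell in each set. Areg was detected in 19.5% of AG and 80% of the 20 GHA501A keratinocyte-marker-high cells. These 3 ligands and Erbb3 had both AG sets below (26.6% of all genes), and Tgfa (1.27, SE 0.57, adjusted p = 0.259) had both above (34.1% of all genes). The Errfi1 difference was -0.52 (SE 0.71, adjusted p = 0.707), against -2.79 over all cells. That of Hbegf was -0.26 (SE 0.55, adjusted p = 0.811), against 1.36 over all cells. The difference between these estimates was not tested.

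The wider pathway was read from a list of further genes by role, of which 51 were in the table and 49 were tested. In the comparison of the series 5 were higher and 12 lower in AG and 32 did not pass, against 10.8% of all genes higher and 18.2% lower. Leaving out the AG untreated, AG treated, GHA501A untreated or GHA501A treated set, again without treatment in the fit, kept 4, 4, 7 and 10 of these 17 genes as calls and added none, and dropping treatment alone kept 12 and added 1. The largest differences upward were Fos (3.89, SE 1.00, adjusted p = 0.0484) and Egr1 (2.39, SE 0.37, adjusted p = 0.0124), immediate early transcription factors, Timp3 (3.68, SE 0.34, adjusted p = 0.00307), an inhibitor of the ligand-shedding protease ADAM17, and Spry1 (1.48, SE 0.35, adjusted p = 0.0389), a Sprouty inhibitor. The largest downward were Fosl1 (-3.73, SE 0.36, adjusted p = 0.00330), an AP-1 subunit, Eps15 (-2.70, SE 0.33, adjusted p = 0.00618), an endocytic adaptor, Shc1 (-3.47, adjusted p = 0.00330) and Hras (-2.82, adjusted p = 0.0116). Shc1 and Hras, an adaptor and a GTPase that most cells use, are listed near 0 across AG (0.02 and 0.01 on the log2 scale), so their values may be failed estimates.

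Among the 8 feedback inhibitors of the MAPK cascade, 5 were lower in AG over all cells, where 18.2% of all genes were, and 1 was higher. The counts without 1 set given above are for the whole list, not for this role. Between the keratinocyte-marker-high cells of the series none of the 8 was called, with differences of -2.73 for Spry4 (SE 0.54, adjusted p = 0.0521), -1.85 for Dusp5 (SE 0.56, adjusted p = 0.127) and -1.83 for Spry2 (SE 0.53, adjusted p = 0.120), which were no smaller than over all cells, and of -0.81 for Dusp4, -0.63 for Spred1 and 0.66 for Spry1. The 5 were the phosphatase gene Dusp4 (-2.03), Spry4 (-2.03), Spred1 (-1.90), Dusp5 (-1.84) and Spry2 (-1.36), named here after their values were seen. Spry1 was the 1 that was higher, whereas Dusp6 (0.30, adjusted p = 0.629) and Spred2 (-0.62, adjusted p = 0.227) did not pass. Of 11 transcripts that the cascade induces, 2 were higher and 3 lower in AG, the latter being Fosl1, Plaur (-1.85) and Hmga2 (-1.97). Adaptors and the Ras-MAPK core had 0 higher and 2 lower of 16 tested. These 2 were Shc1 and Hras, whose values may be failed estimates. Receptor downregulation had 1 and 1 of 7. Ligand shedding had 1 and 0 of 4, and other receptors and ligands 0 and 1 of 3. In keratinocyte-marker-high cells alone 1 pathway gene was higher in AG (Egr1, 4.10, SE 0.55, adjusted p = 0.0253), 1 was lower (Eps15, -2.94, SE 0.56, adjusted p = 0.0482) and 47 did not pass, against 3.02% of all genes higher and 7.4% lower. Both calls were lost without either AG set and treatment out of the fit (adjusted p from 0.175 to 0.228) and with no filter on low values (0.0539 and 0.0791). Classes by Krt14 lost Egr1 (0.109), and Eps15 had an adjusted p between 0.0513 and 0.0651 with a pseudocount of 0.1, averaged logs, cells of at least 5000 genes, no cells near the boundary or no highest cell. Neither the treatment nor the class comparison called any of the 49 by limma, with 4 and 7 at an unadjusted p under 0.05, against 3.72% and 12.8% of all genes.

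Across single cells, correlations between the 10 genes are given as description, since cells are not replicates and many values are 0. The labels name no chip or preparation, and the GHA501A cells are of both marker classes. Of 45 pairs, 1 in AG treated and none in AG untreated cells had an absolute Pearson r over 0.5, and 3 and 2 did in GHA501A treated and untreated cells. The highest was 0.51 for Areg and Epgn in AG treated cells (Spearman rho 0.45), 0.63 for Btc and Epgn in GHA501A treated cells (rho 0.39) and 0.59 for Erbb3 and Btc in GHA501A untreated cells (rho 0.46). In the other set of the same series these pairs had r of -0.19, 0.20 and 0.27. Within the fibroblast-marker-high cells of the same sets r was 0.42 for Btc and Epgn and -0.021 for Erbb3 and Btc. Among those cells of each set a single cell held all of the Btc signal, so these r values rest on it. The highest r in fibroblast-marker-high untreated cells was 0.84 for Erbb3 and Tgfa (rho 0.35). There 1 cell held 79.1% of the Erbb3 signal and 1 held 83.6% of that of Tgfa. The strongest average in AG was between Hbegf and Errfi1, with Pearson r of 0.36 over 66 untreated and 0.35 over 64 treated cells (Spearman rho 0.34 in each). In GHA501A it was -0.26 and 0.01 in untreated and treated cells, and -0.036 and -0.026 within the fibroblast-marker-high cells of these sets. Among 8664 genes above 1 TPM in at least 20% of AG cells, Errfi1 had the highest mean r with Hbegf over the 2 AG sets, and Hbegf was the third closest to Errfi1, after Zdhhc21 (0.37) and Tnfsf9 (0.36). The closest genes to Egfr were Selenoi (0.40), Aqp3 (0.37) and Ccdc181 (0.36), and to Tgfa Aplp2, Dag1 and Kcmf1 (0.39, 0.39 and 0.38). Erbb2 was closest to Ctnna1 (0.34), Arpc5 (0.34) and Syngr2 (0.33), and Erbb3 to Mzt2 (0.40), C77080 (0.32) and Blnk (0.31). Those closest to Ereg were Chst14 (0.36), Tnfaip2 (0.34) and Zfp367 (0.34), and to Btc Pja2 (0.34), Enpp4 (0.32) and Mmgt2 (0.32). For Hbegf, P3h4 (0.35) and Pgf (0.33) followed. Some of these means were uneven between untreated and treated AG cells. The r was 0.15 and 0.55 for P3h4, 0.20 and 0.58 for Aplp2 and 0.55 and 0.26 for Mzt2. For Pja2 it was 0.53 and 0.15, and for Enpp4 0.12 and 0.52. Areg and Epgn were under 20% of AG cells and were not compared. In AG, the r of the 10 genes with the number of genes detected per cell was between -0.18 and 0.34.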

How the data were processed

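Single cells were captured on C1 microfluidic chips and sequenced as full-length SMART-Seq v4 libraries. The authors ran FastQC, Cutadapt, TopHat on GRCm38 without multiply mapped reads, and featureCounts (versions not given in the sources used here), and deposited the values as TPM, in which each cell sums to 1000000 and read depth is lost. Capture sites had been imaged, and the authors left doublets and dead cells out of their later analysis; no doublet caller was run here. Of 294 columns, 16 matched no label and were not used, and 8 AG cells whose name and treatment label conflict entered alternatives only, which left 270 cells.

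Genes above 1 TPM in more than 5 cells were tested on log2(mean TPM of a set + 1) with limma 3.58.1 in R 4.3.3 (two-sided moderated test, Benjamini-Hochberg over all genes tested). A gene was called at adjusted p under 0.05 and an absolute log2 difference over 0.5. Fold changes of low genes are understated by the pseudocount. Series was a block for treatment, treatment a covariate for series, and set a block for class. The scripts were tested on simulated data. The marker lists covered keratinocytes, fibroblasts, melanocytes, immune, endothelial and Schwann cells. The 10 genes and all lists were chosen with earlier results of these data known. Named pathway genes were up to 4 called genes with the largest difference in each direction, and the 3 genes of highest mean r for each member. Alternatives changed the pseudocount, filter, averaging, normalization, cells, classes and blocks, and left out each set or the highest cell.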

Additional observations from a re-analysis of the deposited data

Results flagged for a closer look

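Treated minus untreated log2 differences of 6 of the 10 genes went down in the AG pair of sets and up in the GHA501A pair, and the difference between the series was not tested because each series has 1 set per treatment. For Egfr the values were -0.28 in AG and 1.28 in GHA501A, for Erbb2 -0.82 and 0.64, for Erbb3 -2.23 and 2.28, for Areg -2.04 and 0.64, for Hbegf -0.50 and 0.67, and for Epgn -0.15 and 2.53. Over all genes tested, 50.3% had opposite directions. In the keratinocyte-marker-high cells alone the values in GHA501A were 0.81, 2.64, 2.02, 1.62, 0.06 and 2.08 for the same genes in the same order, from 8 untreated and 12 treated cells. In the fibroblast-marker-high cells, which are 120 of the 140 GHA501A cells, they were 1.37, 0.13, 0.12, -1.77, 0.76 and 1.30. Without the highest cell of each set the AG and GHA501A values were -0.28 and 0.61 for Egfr, -0.63 and 1.14 for Erbb2, -0.72 and 1.95 for Erbb3, -2.38 and 0.042 for Areg, -0.54 and 0.47 for Hbegf, and -0.24 and 1.77 for Epgn. Btc, at -0.64 and -0.35 with all cells, then also went opposite ways, at -0.92 and 0.016. In the keratinocyte-marker-high cells of GHA501A Areg was then 0.78 and Hbegf -0.64.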

How the results depend on the processing

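The TPM values keep no depth, sets are few, and single cells can carry a set mean. Averaging log2(TPM + 1) over cells gave 5539 genes, 31 pathway genes and 6 of the 10 genes called between the series, against 3580, 17 and 3, and quantile normalization gave 5 of the 10. Of all genes 44.8% were called with averaged logs and 36.6% after quantile normalization, against 29%. Hbegf passed under both, without the highest cell and with the conflicting cells placed by label (adjusted p from 0.00179 to 0.0422). The share of calls higher in AG was 37.2%, and 53.2% after quantile normalization, which moved the median of all genes by 0.23. Leaving out a set together with the treatment term gave 1023 to 2229 genes, 4 to 10 pathway genes and 0 to 2 of the 10. Between keratinocyte-marker-high cells, 1287 genes, 2 pathway genes and 0 of the 10 were called. A filter of 10% of cells gave 6 pathway genes and 2 of the 10 (Areg and Epgn) with 17% of all genes called, no filter gave 0 genes and 0 pathway genes, and averaged logs gave 855 genes and 1 of the 10 (Areg). Pathway counts were 1 with cells of at least 5000 genes, 5 after quantile normalization, 1 without cells near the boundary, 4 with Krt14 classes, and 5 without the treatment term, which gave 1 of the 10 (Ereg) with 14.9% of all genes called. Leaving out a set and that term gave 0 to 2729 genes, 0 to 9 pathway genes and 0 to 1 of the 10. The highest cell of each gene left out, an alternative chosen after seeing the data, gave 695 genes and 1 pathway gene. Detection above 10 TPM left 7 of 40 gene and set pairs over 50% of cells, against 13 above 1 TPM. Leaving out a set for the class comparison leaves 1 value per class, with no test.

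Signs turned for uncalled genes as follows. For treatment, Hbegf was -0.24 with averaged logs, -0.041 with the 8 conflicting cells placed by name and -0.033 without the highest cell, and Erbb2 was 0.12 with cells of at least 5000 genes and 0.26 without the highest cell. Leaving out a set with series kept gives the other series' own difference, untested, so that Egfr, Erbb2, Erbb3, Areg, Hbegf and Epgn take either sign, and 0 genes were called without a set and the series term. Between series, Epgn was 0.29 with averaged logs, 0.017 with cells of at least 5000 genes, 0.18 after quantile normalization, 0.95 without the highest cell and between -1.49 and 1.19 without 1 set. Erbb3 was -0.72 with cells of at least 5000 genes, -0.029 and -0.033 with the conflicting cells placed by label or name, and between -2.21 and 2.29 without 1 set, where Egfr was between -0.72 and 0.85. These ranges hold the values with treatment kept, which are untested, and without it. Between classes, Egfr was 0.28 with averaged logs, 0.011 after quantile normalization and 1.05 with Krt14 classes, and Erbb2 -0.029 with Krt14 classes and -0.10 without the highest cell. Both also took either sign by set, untested. In keratinocyte-marker-high and fibroblast-marker-high cells the untreated log2 levels were 2.63 and 2.56 for Egfr and 2.98 and 3.90 for Erbb2. The treated levels were 3.43 and 3.92 for Egfr and 5.62 and 4.03 for Erbb2. Between keratinocyte-marker-high cells, Egfr was -0.53 and Hbegf 0.23 with Krt14 classes, Hbegf 0.019 and Btc 0.64 without the highest cell, and without 1 set Egfr was between -0.26 and 0.79, Erbb2 between -0.85 and 2.63, Btc between -1.28 and 0.0018 and Errfi1 between -1.59 and 0.55. Hbegf also turned there with treatment kept. Its AG and GHA501A log2 levels were 6.41 and 6.40 in untreated sets and 5.92 and 6.45 in treated sets. The cause was not tested. The fits with no replicate block called 0 genes for treatment and 0 for class.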
